A study of Mus musculus with 12 samples.

Results

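IL-4-treated (M2) bone marrow-derived macrophages (BMMs) lacking IGF2BP2 were compared with IL-4-treated WT BMMs across all expressed genes, with attention to gene classes outside glycolysis and mitochondria. The comparison used the 3 KO and the 3 WT libraries labelled as treated with IL-4, 6 of the 12 libraries of the series. The other 6 were untreated (M0) macrophages of both genotypes. In the KO mice loxP sites flanked a pair of exons of Igf2bp2, and Cre was expressed from the Lyz2 locus (Lyz2tm1(cre)Ifo), which is active in macrophages, neutrophils and their precursors. The WT mice were littermates without floxed alleles and with or without Cre, so that the loss of IGF2BP2 and the insertion of Cre into Lyz2 cannot be told apart here. Marrow cells of both genotypes were grown with 50 ng/ml M-CSF for 6 days, then seeded at 500000 cells and either left untreated (M0) or given IL-4 at 20 ng/ml during 8 h (M2), with 3 mice per group. Poly(A) RNA was read with single 75 nt reads. Of 38887 genes in the files, 12846 had enough counts to be tested. A gene is said to have risen, fallen or been called where its edgeR p, adjusted over these 12846 genes, was under 0.05. Levels are given in CPM, the counts of a gene scaled to a common library total. Where the libraries of the groups are said not to overlap, this describes genes that were called and adds no support to the call.

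IGF2BP2 is a cytoplasmic RNA-binding protein that reads m6A-modified transcripts and is best known for keeping mRNAs stable and translated. IL-4 binds its receptor on macrophages, activates STAT6 and turns on the alternative activation program, whose usual markers include the mannose receptor and resistin-like proteins. E2F transcription factors switch on the genes of DNA replication ahead of S phase, and bone marrow-derived macrophages in M-CSF divide little once they have differentiated.

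Total counts ranged from 20011792 to 22744704 in WT M2 and from 27347077 to 39632770 in KO M2, so that depth differed with genotype. KO M2 replicate 1 stood apart by gene length. Its median deviation from the mean of the 6 libraries was 0.11 on the log2 scale in the shortest quartile of genes and -0.13 in the longest, whereas the other 5 libraries stayed between -0.05 and 0.05. The median log2 fold change of KO against WT was 0.07 in the shortest and -0.08 in the longest quartile, and 10 genes of the longest quartile were called higher and 104 lower. Without KO M2 replicate 1 these were 31 and 63. Results are therefore also given without this library and with an offset that removes each library's length trend. WT M0 replicate 3 deviated in the same way, by 0.09 and -0.10. Libraries of 1 group differed by more than sampling noise (chi-square per degree of freedom 4.5 to 37.9). The cell type was checked with marker lists, and the 11 macrophage markers summed to 10818 to 11460 CPM in WT M2 and 6290 to 6433 CPM in KO M2, with Lyz2 as the 1 called marker. Without Lyz2, the site of the Cre insertion, the other 10 summed to 6167 to 6633 CPM in WT M2 and 6279 to 6418 CPM in KO M2. T and NK cell markers summed to at most 0.876 CPM in any M2 library, neutrophil markers to at most 14.4 CPM and dendritic cell markers to at most 2.94 CPM.

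**Figure D1:**
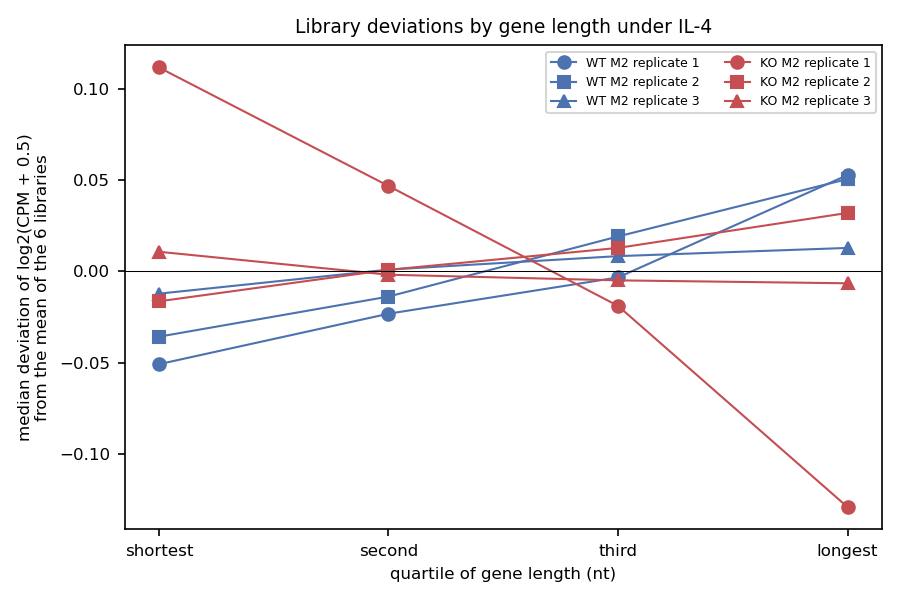
Median deviation of each library from the mean of the 6 IL-4-treated libraries (y axis, log2 scale) in 4 quartiles of gene length from the shortest to the longest (x axis), with WT and KO in different colours. KO M2 replicate 1 runs from 0.11 to -0.13, and the other 5 libraries stay between -0.05 and 0.05.

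The targeted locus was examined first. Igf2bp2 (chromosome 16, 22059009 to 22163299, minus strand, GRCm38) had 221, 233 and 178 CPM in WT M2 and 146, 129 and 129 CPM in KO M2. All KO libraries lay below all WT libraries (log2 fold change -0.65, SE 0.13, edgeR adjusted p = 0.0285), and 4 of the 6 fits with 1 library left out lost the call. In M0, Igf2bp2 had 98 ± 20.7 CPM in WT and 90.8 ± 5.53 CPM in KO (mean ± SD, n = 3, log2 fold change -0.11, edgeR adjusted p = 0.656), a difference that did not pass the test. The M0 counts of the targeted gene alone therefore do not check the labels, and those of Lyz2 are given below. For Igf2bp2 the difference between M2 and M0 was -0.53, SE 0.19, adjusted p = 0.155, or -0.55 with adjusted p = 0.00751 with the mouse as a block. Gene counts include reads from the exons that remain. Igf2bp3, a paralog that is usually silent in adult tissues, had 19.6, 19.8 and 18.4 CPM in WT M2 and 5.42, 4.58 and 4.41 CPM in KO M2 (-2.01, SE 0.14, edgeR adjusted p = 2.13e-05). Its M0 value was -2.16 (adjusted p = 1.18e-05), where Igf2bp2 had -0.11. Reads that match both paralogs are divided between them, and their part in the Igf2bp3 value was not tested. Lyz2, the site of the Cre insertion, had 4185, 4585 and 5293 CPM in WT M2 and 11, 14.7 and 11.2 CPM in KO M2. Of 23 fitted m6A writers, erasers and readers, Igf2bp2 and Igf2bp3 were the 2 called.

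To identify genes that differed with genotype under IL-4, edgeR's quasi-likelihood test was fitted over all 4 groups. It called 344 genes (2.68% of those tested), 156 higher (1.21%) and 188 lower (1.46%) in KO M2. Most differences were small, since 233 of the 344 had a log2 fold change under 0.5 in size and 38 reached 1 or more. At an unadjusted p under 0.05 the test gave 2611 genes (20.3%), and DESeq2 called 717 (5.58%), which are the shares to set beside the counts of those kinds given for gene lists. The number of calls was 298 without KO M2 replicate 1, 34 without KO M2 replicate 2, 25 without KO M2 replicate 3, 185 without WT M2 replicate 1, 34 without WT M2 replicate 2 and 271 without WT M2 replicate 3. With all libraries thinned to the smallest total it was 274. Losses of single calls are printed for some genes only, so a gene without such an entry may also have lost its call in some fits. The 2.68% of all genes is to be set beside the called members of each list, and a share near it is no result about the list. In untreated macrophages 1256 genes (9.78%) were called between the genotypes, 707 of them higher in KO (5.5%). The difference between the M2 and the M0 value, tested as an interaction, was called for 416 genes (3.24%), 273 of them more negative (2.13%), or for 1002 with the mouse as a block, and 110 of the 344 were among the 416, of which 83 were lower and 27 higher in KO M2. In M0, 96 of the 344 were called in the same direction and 26 in the opposite one.

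Several genes of DNA replication fell in KO M2. Of the 69 genes of the cell cycle and DNA replication list 6 fell (8.7%, beside 2.68% of all genes) and 0 rose. Of the 69, 53 had a log2 fold change below 0, with a median of -0.14 beside -0.0009 over all genes tested. Without KO M2 replicate 1, 10 were called lower, with the length offset 11, with the length and GC offset 6, with libraries thinned to the smallest total 5, by DESeq2 11 and by limma 0. The 6 genes called by edgeR with all libraries were subunits of the MCM helicase, which unwinds DNA at the replication fork (Mcm2, Mcm3, Mcm4 and Mcm7), the helicase loader Cdc6 and the uracil-DNA glycosylase Ung. Mcm7 (chromosome 5, 138164583 to 138172422, minus strand) had 94.3, 95 and 101 CPM in WT M2 and 77.7, 69.8 and 69.9 CPM in KO M2. The KO libraries were all below the WT libraries (log2 fold change -0.42, SE 0.08, edgeR adjusted p = 0.0224). The Mcm7 gene overlaps Ap4m1 and Cops6 on the other strand and holds the microRNA genes Mir25, Mir93 and Mir106b. Cdc6 had 35.2, 37.7 and 32.6 CPM in WT M2 and 30.5, 22.8 and 24.2 CPM in KO M2, again without overlap (-0.45, SE 0.10, adjusted p = 0.0322). Ung, which removes uracil from DNA, had 19.1, 16.8 and 15.8 CPM against 13.3, 9.83 and 10.0 CPM (-0.65, SE 0.15, adjusted p = 0.0421). The log2 fold change was -0.40 for Mcm4, -0.34 for Mcm2 and -0.32 for Mcm3, each without overlap of the groups. Values outside the call included the helicase subunit Mcm5 (-0.12, adjusted p = 0.331) and the sliding clamp Pcna (-0.27, adjusted p = 0.0735, and -0.36 with adjusted p = 0.0216 without KO M2 replicate 1). Each of the 6 calls was lost in 4 or 5 of the 6 fits without 1 library, and those of Mcm4, Mcm7, Cdc6 and Ung also with the library number as a block.

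The promoters of Mcm3, Mcm7 and Cdc6 are shown because they hold letters of the E2F binding motif. Of the 6 called genes 5 had a promoter entry, and the letters were found in these 3 and not in Mcm2 and Ung. The motif was searched on both strands as TTTGGCGC, TTTCCCGC, TTTCGCGC or TTTGCCGC in the RefSeq promoters of GRCm38.p6, which cover 300 bases around a gene's start. It was present in 2.26% of all 32851 promoters. Counted by gene, it was present in 459 of the 9615 fitted genes with an entry (4.77%) and in 14 of the 56 genes of the replication list with an entry (25.0%). The regions are chr1:20820263-20820562 (minus strand) for Mcm3, chr5:138171834-138172133 (minus strand) for Mcm7 and chr11:98907901-98908200 (plus strand) for Cdc6, each written 5′ to 3′ on the strand of the gene, with the matches in capitals and none of them overlapping.
Mcm3: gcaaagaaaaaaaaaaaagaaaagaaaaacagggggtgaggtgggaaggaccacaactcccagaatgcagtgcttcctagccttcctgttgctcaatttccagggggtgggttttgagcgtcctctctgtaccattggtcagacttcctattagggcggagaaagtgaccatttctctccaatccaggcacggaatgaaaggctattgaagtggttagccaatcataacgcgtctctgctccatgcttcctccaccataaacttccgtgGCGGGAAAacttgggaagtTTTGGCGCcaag
Mcm7: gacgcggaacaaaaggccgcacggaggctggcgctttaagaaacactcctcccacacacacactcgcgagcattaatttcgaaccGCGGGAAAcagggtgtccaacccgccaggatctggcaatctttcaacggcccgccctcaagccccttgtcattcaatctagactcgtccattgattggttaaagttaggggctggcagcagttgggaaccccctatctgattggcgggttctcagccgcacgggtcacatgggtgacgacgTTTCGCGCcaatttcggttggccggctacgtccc
Cdc6: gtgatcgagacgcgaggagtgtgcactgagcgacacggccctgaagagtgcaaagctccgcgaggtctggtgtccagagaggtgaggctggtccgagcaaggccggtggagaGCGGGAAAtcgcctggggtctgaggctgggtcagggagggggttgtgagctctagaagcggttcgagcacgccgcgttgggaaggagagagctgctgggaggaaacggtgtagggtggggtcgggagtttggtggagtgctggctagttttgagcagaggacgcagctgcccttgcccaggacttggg

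Genes of DNA repair, checkpoints and chromatin assembly at the fork were also among those called lower. After the values were seen, 54 called genes were assigned by known function to DNA replication, repair or their checkpoints, 48 of them outside the list above. They were picked among genes called lower, so their number and direction carry no test. Their log2 fold changes ranged from -0.66 to -0.25 with a median of -0.41, and 25 of the 54 lay in the longest quartile of genes. With KO M2 replicate 1 left out 43 were called, with the length offset 42 and with an offset for length and GC content 38. Single libraries decided many of these calls, since 4 were called without KO M2 replicate 2, 4 without KO M2 replicate 3, 40 without WT M2 replicate 1, 4 without WT M2 replicate 2 and 23 without WT M2 replicate 3.

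Among these 54 genes Chek1, Timeless, Dnmt1 and Mdc1 were called in all 6 fits without 1 library. Chek1, the kinase that halts the cycle when forks stall, had 14.8, 15.8 and 16.6 CPM in WT M2 and 10.6, 9.81 and 9.5 CPM in KO M2 (log2 fold change -0.66, SE 0.08, edgeR adjusted p = 0.00247). Timeless, a fork protection factor, had 33.9, 34 and 36.3 CPM against 26.2, 22.3 and 21.2 CPM (-0.59, SE 0.08, adjusted p = 0.00382). Dnmt1, the maintenance DNA methyltransferase, had 196, 204 and 195 CPM against 137, 147 and 143 CPM (-0.48, SE 0.06, adjusted p = 0.00382). In each of these genes the lowest WT library exceeded the highest KO library. Mdc1, an adaptor at DNA breaks, had 67.1, 61.2 and 62.5 CPM against 42.3, 47.8 and 48.1 CPM (-0.46, SE 0.07, adjusted p = 0.00813). Calls lost in 3 of the 6 fits were those of Uhrf1, which guides DNMT1 to replicated DNA (-0.51, SE 0.08, adjusted p = 0.00813), the chromatin remodeller Hells (-0.63, SE 0.10, adjusted p = 0.0117), the mismatch repair gene Msh6 (-0.55, SE 0.10, adjusted p = 0.0159) and the recombination gene Brca1 (-0.41, SE 0.07, adjusted p = 0.0181). Chromatin genes among those called lower, likewise chosen after their values were seen, were the Polycomb methyltransferase Ezh2 (-0.38, adjusted p = 0.0114), the H3K36 methyltransferase Nsd2 (-0.46, adjusted p = 0.00595) and the heterochromatin protein Cbx5 (-0.37, adjusted p = 0.0195).

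The same genes were followed in untreated macrophages. In M0, 44 of the 54 had a log2 fold change above 0, with a median of 0.15, and 11 were called higher and 0 lower by edgeR. Over all genes 6386 of 12846 lay above 0 and 5.5% were called higher. The difference between the M2 and the M0 value was called for 43 of the 54, for 41 without WT M0 replicate 3 and for 49 with the mouse as a block. The M2 values by which the genes were picked enter this difference, so the count is a description. In the replication list of 69 genes, which was not trimmed by values, 6 were called for a more negative difference and 0 for a more positive one, and 3 were called higher in KO M0. In M0 this list had 24 genes above 0 and 45 below 0 (median -0.06, and -0.06 for the difference), whereas the 54 lay mostly above 0. Timeless had 0.35 in M0 and -0.59 in M2 (difference -0.94, SE 0.11, adjusted p = 0.00185). Cdc6 had 0.33 in M0 and -0.45 in M2 (difference -0.78, SE 0.13, adjusted p = 0.00874), and Ung had 0.51 and -0.65 (difference -1.16, SE 0.21, adjusted p = 0.0118). For Mcm4 the values were 0.06 and -0.40 (difference -0.46, SE 0.11, adjusted p = 0.0447).

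IL-4 itself lowered most of these genes in both genotypes. Between M0 and M2, 3226 genes (25.1%) fell in WT and 3346 (26.0%) in KO macrophages, in a fit without the mouse as a block. Of the 69 genes of the list 61 fell in WT with a median of -0.83, and 63 fell in KO with a median of -0.97. Of the 54 genes 42 fell in WT (median -0.43) and 54 in KO (median -1.0). The genes were picked as lower in KO M2 than in WT M2. The choice therefore enters both comparisons, and the gap between the medians is no separate result. Mean levels of Chek1 went from 22.2 ± 0.859 to 15.7 ± 0.903 CPM in WT and from 24.4 ± 1.89 to 9.98 ± 0.579 CPM in KO macrophages (SD, n = 3 each). Those of Dnmt1 went from 255 ± 24.7 to 198 ± 4.67 CPM in WT and from 296 ± 5.08 to 142 ± 4.82 CPM in KO. In bulk RNA, fewer cells in S phase and less RNA per cell cannot be told apart.

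**Figure D2:**
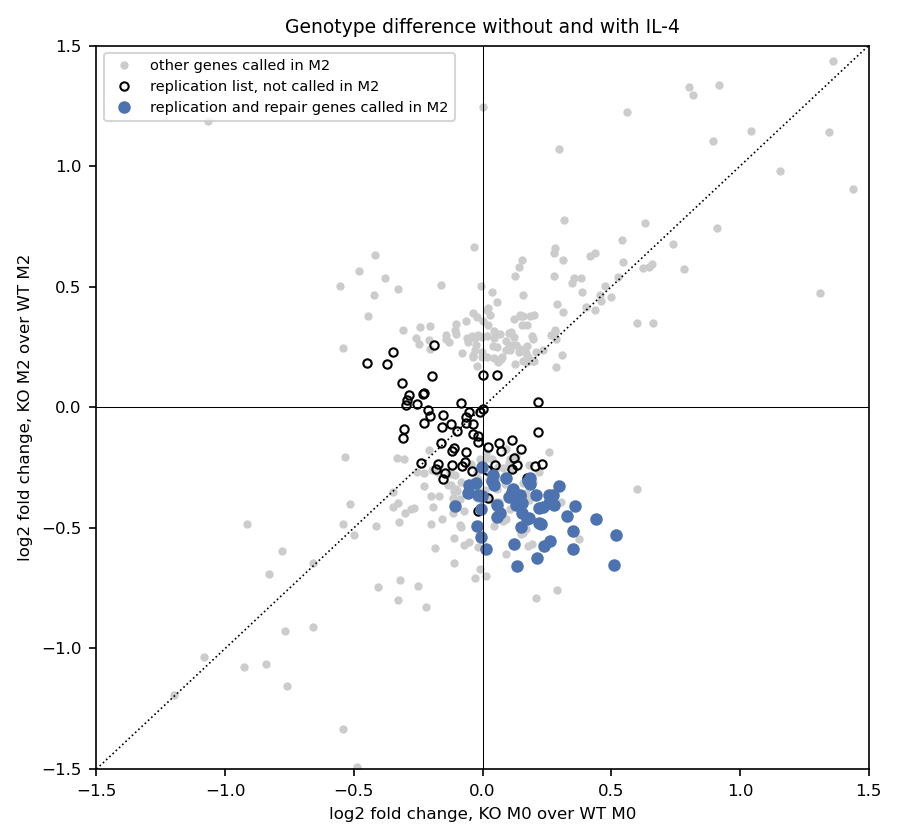
Log2 fold change of KO against WT in M0 (x axis) and M2 (y axis) for the 54 replication and repair genes called in M2, the other 63 genes of the replication list and the other genes called in M2, of which 20 lie outside the axes. The 54 genes lie below 0 in M2, and 44 of them lie above 0 in M0.

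Ligands and receptors of growth and differentiation moved in both directions. Of 28 fitted growth factors 2 rose and 1 fell (median -0.04), and of 41 growth factor and cytokine receptors 3 rose and 1 fell (median -0.06). The shares called were 10.7% and 9.76%, beside 2.68% of all genes. Kitl, the ligand of the receptor KIT on stem and mast cells (chromosome 10, 100015630 to 100100416, plus strand), had 70.1, 75.4 and 84.6 CPM in WT M2 and 238, 303 and 305 CPM in KO M2. Every KO library exceeded every WT library (log2 fold change 1.88, SE 0.10, edgeR adjusted p = 1.3e-06), and Kitl was called under every alternative and without each library. Its M0 value was 1.25 (difference 0.63, SE 0.14, adjusted p = 0.0297). Kitl lies 17.3 Mb from Lyz2 on the same chromosome. Gdf3, a ligand of the TGF-beta family, had 22.6, 22.1 and 19.9 CPM in WT M2 and 10.8, 9.65 and 7.99 CPM in KO M2 (-1.19, SE 0.11, adjusted p = 0.000437), with -1.20 in M0, and was also called throughout. Pdgfa, a mitogen of mesenchymal cells, had 112, 109 and 90.6 CPM against 142, 128 and 137 CPM (0.38, SE 0.09, adjusted p = 0.0477). It had -0.44 in M0 (difference 0.82, SE 0.13, adjusted p = 0.00755), and its M2 call was lost in all 6 fits without 1 library.

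Among receptors, Bmpr1a, a type I receptor for BMP ligands, had 8.9, 7.37 and 11.3 CPM in WT M2 and 3.13, 3.13 and 3.26 CPM in KO M2 (log2 fold change -1.53, SE 0.25, edgeR adjusted p = 0.0125). The groups were far apart, and the call was lost in 2 of the 6 fits. Gm17110 overlaps Bmpr1a on the other strand. Axl, a receptor tyrosine kinase that binds apoptotic cells through GAS6, had 36.2, 28.6 and 33.7 CPM against 49.4, 50.2 and 43.6 CPM (0.54, SE 0.10, adjusted p = 0.0229) and was also the 1 called gene of 26 in the phagocytosis and efferocytosis list. Il10ra, the IL-10 receptor, rose by a smaller amount (0.26, SE 0.05, adjusted p = 0.0327), as did the IL-21 receptor Il21r (0.47, SE 0.11, adjusted p = 0.0477), whose call was lost in all 6 fits. In the list of BMP, TGF-beta and ID signalling, 2 of 26 fell (7.69%), Bmpr1a among them, with a median of -0.14.

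Genes of the matrix and of coagulation were measured beside markers of stromal cells. Of 42 matrix genes, proteases and inhibitors 2 rose and 1 fell (7.14% called, beside 2.68% of all genes), with a median of -0.17. The 10 stromal markers summed to 72.1, 39.9 and 47.8 CPM in WT M2 and 25.1, 33.1 and 11.5 CPM in KO M2, with Lum at 0. All 8 fitted stromal markers had a value below 0 (median -1.20), 6 had an unadjusted p under 0.05, 0 were called by edgeR, 1 by DESeq2 and 0 by limma, and their part in the values of Bmpr1a, Fat3 and the matrix list was not tested. Plaur, the urokinase receptor, had 60.6, 61.4 and 58.2 CPM in WT M2 and 81.7, 78.9 and 73.1 CPM in KO M2 (log2 fold change 0.37, SE 0.07, edgeR adjusted p = 0.0229, lost in 5 of the 6 fits without 1 library). Mmp8, a collagenase of neutrophils and macrophages, had 19.9, 26 and 22 CPM against 39, 34.2 and 40.5 CPM (0.74, SE 0.15, adjusted p = 0.0274, lost in all 6 fits), while the neutrophil markers summed to 5.67 to 14.4 CPM in WT M2 and 5.69 to 7.06 CPM in KO M2, with Ly6g and Retnlg at 0. Thbd, the thrombin cofactor thrombomodulin, was the 1 called gene of 11 coagulation factors and transglutaminases, with 7.0, 6.65 and 6.44 CPM against 4.41, 4.09 and 3.9 CPM (-0.70, SE 0.12, adjusted p = 0.0157). It had 0.01 in M0 (difference -0.71, SE 0.16, adjusted p = 0.0334), and the difference had an adjusted p of 0.0557 without WT M0 replicate 3. Jag1, a Notch ligand, had 55.6, 50.4 and 33.9 CPM against 28.5, 26.6 and 25.4 CPM (-0.80, SE 0.17, adjusted p = 0.0307, lost in 5 of the 6 fits).

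Genes of antigen presentation and co-stimulation were among those higher in KO M2. Of 15 fitted genes of MHC class II presentation 3 rose (20.0%, beside 2.68% of all genes) and 0 fell, and 13 had a value above 0 (median 0.15). The 3 were the alpha and beta chains of I-A, H2-Aa and H2-Ab1, and H2-DMa, a chain of the peptide-loading chaperone. H2-Ab1 had 2.86, 2.63 and 5.47 CPM in WT M2 and 10.1, 9.03 and 8.45 CPM in KO M2 (log2 fold change 1.33, SE 0.29, edgeR adjusted p = 0.0351). H2-Aa had 4.86, 4.43 and 6.39 CPM against 11.8, 11.8 and 11.2 CPM (1.15, SE 0.26, adjusted p = 0.0416). WT M2 replicate 3 was the highest WT library in both genes and still below every KO library. H2-DMa, which Brd2 overlaps on the other strand, had 8.36, 9.59 and 12 CPM against 16.3, 14.8 and 14.6 CPM (0.61, SE 0.14, adjusted p = 0.0385). H2-Eb1 (0.99, adjusted p = 0.0794) and the invariant chain Cd74 (0.14, adjusted p = 0.747) did not pass. The calls of these 3 genes were lost without KO M2 replicate 1 and in 5 of the 6 fits each, and all 3 passed with the length offset. The dendritic cell markers summed to 2.50 to 2.94 CPM in WT M2 and 2.15 to 2.52 CPM in KO M2. Of 23 genes of MHC class I presentation 0 were called by edgeR or limma, 2 by DESeq2 and 4 at an unadjusted p under 0.05.

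The promoter of H2-Aa is shown because it holds a Y box and an X2-type element upstream of it, the elements on which the class II regulators are known to assemble. CTGATTGG and TGACGTCA were searched on both strands and were present in 4.10% and 1.79% of the 32851 promoters. The letters of the Y box were found in 2 of the 10 fitted class II genes with an entry. The region is chr17:34287774-34288073 (minus strand) in the same RefSeq build, 5′ to 3′ with both elements in capitals.
H2-Aa: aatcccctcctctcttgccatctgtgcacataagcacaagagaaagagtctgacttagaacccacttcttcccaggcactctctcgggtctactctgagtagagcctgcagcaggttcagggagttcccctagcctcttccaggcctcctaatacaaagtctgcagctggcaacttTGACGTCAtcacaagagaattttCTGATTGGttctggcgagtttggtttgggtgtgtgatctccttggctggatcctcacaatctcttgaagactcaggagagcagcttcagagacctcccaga

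Of 25 co-stimulatory and checkpoint molecules 3 rose and 0 fell (median 0.01), and of 16 classical activation markers 3 rose and 0 fell (median 0.10). The shares called were 12.0% and 18.8%, beside 2.68% of all genes. Cd40 and Cd86 count in both lists, with Cd276 as the third of the former and Marco, which is also in the scavenger receptor list, of the latter. Cd40, the receptor through which T cells activate macrophages, had 38.8, 41.4 and 39 CPM in WT M2 and 56.5, 53 and 55.1 CPM in KO M2 (log2 fold change 0.46, SE 0.08, edgeR adjusted p = 0.0156). It was lower in KO M0 (-0.42, adjusted p = 0.015), and the difference was called (0.89, SE 0.12, adjusted p = 0.00405). Cd86, a ligand of CD28, had 3.36, 4.02 and 4.09 CPM against 5.91, 5.56 and 6.68 CPM (0.66, SE 0.16, adjusted p = 0.0488). Cd276, a checkpoint ligand of the B7 family, had 2.45, 2.58 and 2.15 CPM against 3.35, 4.11 and 3.63 CPM (0.63, SE 0.15, adjusted p = 0.0498; difference from M0 1.05, SE 0.22, adjusted p = 0.0233). For both, the KO libraries lay above the WT libraries, and the M2 call was lost in all 6 fits. Tnip1, which restrains NF-kappaB signalling, was the 1 called gene of 35 in the Toll-like receptor list (2.86%, beside 2.68% of all genes). It had 0.24 in M2 (edgeR adjusted p = 0.043) and -0.54 in M0 (difference 0.79, SE 0.08, adjusted p = 0.00114), and its M2 call was likewise lost in all 6 fits. Nfkb1, the p105 subunit of NF-kappaB, had 0.09 in M2 (adjusted p = 0.459) and -0.33 in M0 (difference 0.42, SE 0.09, adjusted p = 0.0279).

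Receptors that bind particles and lipids rose in part. Of 31 C-type lectins and scavenger receptors 3 rose (9.68%, beside 2.68% of all genes) and 0 fell (median 0.03), and the same 3 were higher in KO M0. Marco, a scavenger receptor for bacteria and particles, had 21.6, 20.8 and 18.9 CPM in WT M2 and 29.2, 70.1 and 60.9 CPM in KO M2 (log2 fold change 1.39, SE 0.32, edgeR adjusted p = 0.0427). Replicate 1 was the lowest KO library, and the value was 1.68 without it. Msr1, scavenger receptor A, had 222, 241 and 223 CPM against 265, 309 and 298 CPM (0.35, SE 0.07, adjusted p = 0.0256). Clec4n, which encodes dectin-2, had 2.09, 1.6 and 1.79 CPM against 3.62, 4.37 and 3.82 CPM (1.11, SE 0.22, adjusted p = 0.0244). Of 18 lipid-associated macrophage and MS4A genes 3 rose (16.7%), all of the Ms4a6 group of membrane proteins on chromosome 19. Ms4a6c had 39.4, 35.9 and 35.3 CPM in WT M2 and 53.2, 57.4 and 61.7 CPM in KO M2 (0.64, SE 0.07, adjusted p = 0.0015) and kept its call in all 6 fits without 1 library. Ms4a6b (0.63, SE 0.13, adjusted p = 0.0262) and Ms4a6d (0.19, SE 0.04, adjusted p = 0.043) lost theirs in all 6. Of 23 Fc receptors and complement genes 0 were called by edgeR or limma, 5 by DESeq2 (beside 5.58% of all genes) and 12 at an unadjusted p under 0.05 (beside 20.3%).

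**Figure D3:**
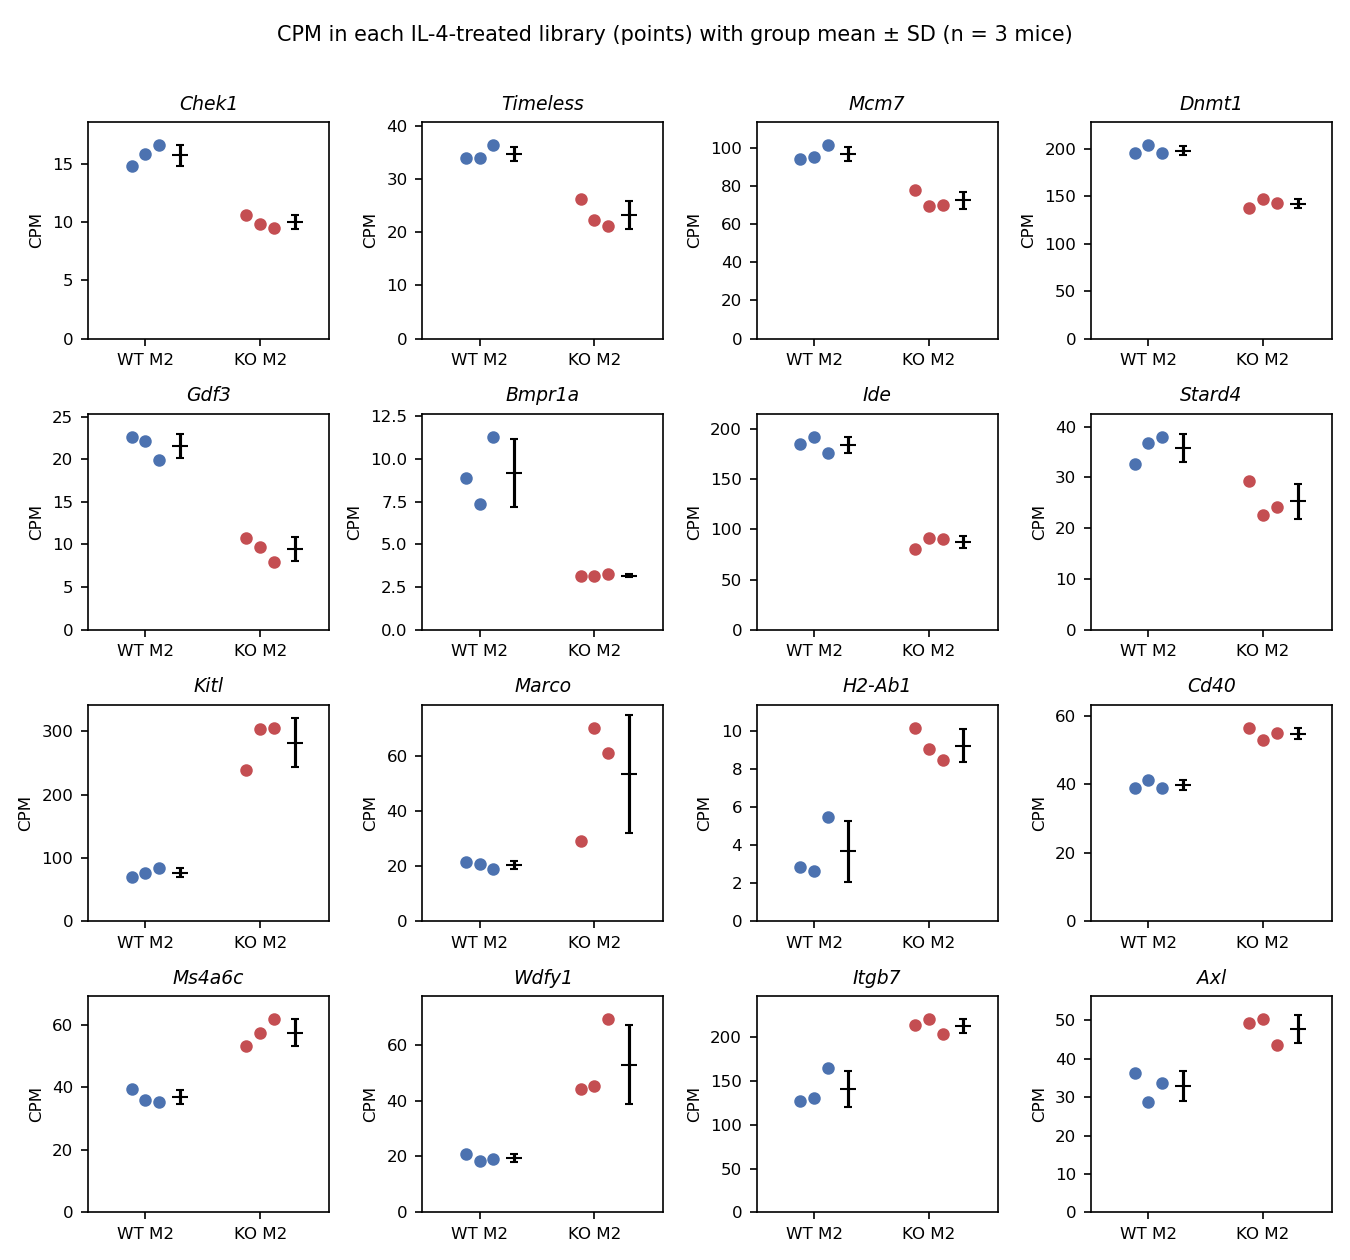
CPM of 16 genes (1 panel each, y axis from 0) in the 3 WT M2 and the 3 KO M2 libraries, with the mean ± SD of each group. Marco has the widest spread within KO relative to its mean, from 29.2 to 70.1 CPM.

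Adhesion and cytoskeletal genes carry macrophage movement. Of 35 adhesion molecules 2 rose and 1 fell (median -0.04), and of 59 actin, podosome and migration regulators 0 rose and 2 fell (median -0.02). The shares called were 8.57% and 3.39%, the second near the 2.68% of all genes. Itgb7, an integrin beta chain, had 127, 131 and 165 CPM in WT M2 and 214, 220 and 204 CPM in KO M2 (log2 fold change 0.60, SE 0.10, edgeR adjusted p = 0.0151). Itgal, the alpha chain of LFA-1, had 7.0, 7.11 and 8.03 CPM against 9.34, 13.1 and 13 CPM (0.69, SE 0.13, adjusted p = 0.0229). Fat3, an atypical cadherin, had 16.7, 16.4 and 11.3 CPM against 5.16, 7.12 and 5.28 CPM (-1.33, SE 0.23, adjusted p = 0.0156). The integrins were thus higher and the cadherin lower. The call was lost in 3 of the 6 fits without 1 library for Itgb7, in 4 for Itgal and in 2 for Fat3. Ptk2, which encodes focal adhesion kinase (-0.47, SE 0.10, adjusted p = 0.0275), and Vcl, the focal adhesion protein vinculin (-0.34, SE 0.06, adjusted p = 0.0197), fell, and with the length offset their adjusted p was 0.0631 and 0.088. Of 22 chemokines Pf4, which platelets and macrophages make, rose with 335, 350 and 336 CPM against 483, 423 and 421 CPM (0.38, SE 0.09, adjusted p = 0.0414, lost in all 6 fits). The erythroid and megakaryocyte markers summed to 5.36 to 8.56 CPM in WT M2 and 10.7 to 11.9 CPM in KO M2, and their part in the Pf4 value was not tested.

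The lists of the program that IL-4 induces had 0 called genes for receptor and STAT6 signalling, 5.56% for the activation markers and 4.55% for the transcription factors, beside 2.68% of all genes tested. Of 22 genes of IL-4 receptor and STAT6 signalling 0 were called by edgeR, DESeq2 or limma, and 5 had an unadjusted p under 0.05, a share near the 20.3% of all genes (median 0.03). The log2 fold change was 0.11 for Il4ra (adjusted p = 0.392) and -0.11 for Stat6 (adjusted p = 0.162). Of 36 alternative activation markers 1 rose and 1 fell (median 0.00). Retnla, a resistin-like protein, had 67.5, 88.3 and 152 CPM in WT M2 and 120, 96.5 and 108 CPM in KO M2 (log2 fold change 0.08, SE 0.22, edgeR adjusted p = 0.878). The groups overlapped. Mrc1, the mannose receptor, had -0.17 in M2 (adjusted p = 0.384) and -0.86 in M0 (difference 0.69, SE 0.14, adjusted p = 0.0233). The called members were Rnase2a, a ribonuclease of low level with 0.818, 1.03 and 1.28 CPM against 2.07, 2.56 and 2.75 CPM (1.25, SE 0.25, adjusted p = 0.0447), and Gatm, an enzyme of creatine synthesis (-0.21, SE 0.05, adjusted p = 0.0477), both lost in all 6 fits. Of 22 transcription factors of alternative activation Ppard, a nuclear receptor for fatty acids, rose with 9.45, 9.07 and 9.71 CPM against 11.8, 15.1 and 15.2 CPM (0.58, SE 0.10, adjusted p = 0.0175).

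Interferon-stimulated genes showed 0 calls among 51 by edgeR and limma and 2 by DESeq2, while 15 had an unadjusted p under 0.05 (beside 20.3% of all genes). Of the 51, 37 lay below 0 (median -0.13). In M0, 13 were called higher (beside 5.5% of all genes, median 0.27), and the difference between M2 and M0 was called more negative for 8 and more positive for 0. The 8 included Stat2 and Irf9, subunits of the interferon-activated factor ISGF3, with differences of -0.38 and -0.34, and Oas3, a sensor of double-stranded RNA, with -0.61.

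Lists of iron, polyamine and antioxidant metabolism held 3 called genes each, and that of cholesterol synthesis 1. The shares called were 16.7%, 15.8%, 10.0% and 4.0% in that order, beside 2.68% of all genes. Of 18 iron genes 1 rose and 2 fell. Hmox1, heme oxygenase 1, had 993, 975 and 735 CPM in WT M2 and 707, 545 and 559 CPM in KO M2 (log2 fold change -0.58, SE 0.12, edgeR adjusted p = 0.0285). Tfrc, the transferrin receptor, had 1081, 1129 and 1033 CPM against 853, 782 and 788 CPM (-0.42, SE 0.09, adjusted p = 0.0326). The calls of Hmox1 and Tfrc were each lost in 4 of the 6 fits without 1 library. The phagosomal metal transporter Slc11a1 rose (0.28, SE 0.06, adjusted p = 0.0313), with an adjusted p of 0.0511 under the length offset. Of 25 genes of cholesterol synthesis 1 fell and 18 were below 0 (median -0.09). Stard4, a sterol carrier, had 32.7, 36.8 and 38 CPM against 29.2, 22.6 and 24.1 CPM (-0.51, SE 0.09, adjusted p = 0.0157). It had 0.17 in M0 (difference -0.68, SE 0.12, adjusted p = 0.012). Without KO M2 replicate 1, 4 genes of this list were called lower, Stard4, the sterol oxidase Msmo1, the HMG-CoA synthase Hmgcs1 and the SREBP regulator Insig1, and 4 had a called, more negative difference from M0. Of 19 genes of arginine and polyamine metabolism Ass1, which rebuilds arginine from citrulline (0.54, SE 0.11, adjusted p = 0.0274), and the spermidine synthase Srm (0.31, SE 0.05, adjusted p = 0.0165) rose, and Amd1, which supplies the aminopropyl group (-0.21, SE 0.05, adjusted p = 0.0421), fell, the last with an adjusted p of 0.064 under the length offset. Srm had -0.10 in M0 (difference 0.41, SE 0.08, adjusted p = 0.0147). Of 30 NRF2 antioxidant genes Gstm1 (0.26, adjusted p = 0.0488) and Taldo1 (0.19, adjusted p = 0.0373) rose and Hmox1 fell, and the calls of Gstm1 and Taldo1 were lost in all 6 fits.

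Lipid mediators showed a pair of phospholipases on opposite sides. Pla2g5, a secreted phospholipase A2 that Pla2g2a overlaps on the other strand, had 13.7, 16.1 and 15.5 CPM in WT M2 and 8.29, 7.4 and 8.13 CPM in KO M2 (log2 fold change -0.93, SE 0.12, edgeR adjusted p = 0.00352) and kept its call in all 6 fits. Pla2g7, which degrades platelet-activating factor, had 28.5, 26.2 and 30.1 CPM against 39.5, 37.7 and 36.9 CPM (0.43, SE 0.06, adjusted p = 0.0105) and was the 1 called gene of 20 in the eicosanoid list. Of 47 genes of phospholipid and polyunsaturated fatty acid synthesis 1 rose (2.13%, beside 2.68% of all genes). This was the triglyceride lipase Pnpla2 (0.25, SE 0.06, adjusted p = 0.0498), whose call was lost in 5 of the 6 fits and under the length offset (adjusted p = 0.0604). Of 22 LXR targets 0 were called by edgeR or limma, 1 by DESeq2 and 5 at an unadjusted p under 0.05. Hilpda, an inhibitor of lipolysis, was the 1 called gene of 25 hypoxia targets (0.31, SE 0.05, adjusted p = 0.0119), with an adjusted p of 0.058 under the length offset.

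Genes of protein synthesis, folding and disposal changed little one by one. Of 83 cytosolic ribosomal proteins 0 were called by edgeR or limma, 1 by DESeq2 and 4 at an unadjusted p under 0.05, while edgeR called 3 lower with the length offset and 2 with the length and GC offset. Their median of 0.05 changed sign to -0.01 without KO M2 replicate 1 and to -0.04 with the length offset. Of 49 translation factors 0 were called by edgeR or limma, 1 by DESeq2 and 8 at an unadjusted p under 0.05, a share below the 20.3% of all genes. Of 43 proteasome subunits Psmd3 rose (0.20, adjusted p = 0.0488, lost in all 6 fits). In the unfolded protein response 0 of 34 genes were called by edgeR or limma, 1 by DESeq2 and 6 at an unadjusted p under 0.05. Of 26 ATF4 targets 23 were above 0 (median 0.10), with 0 called by edgeR or limma, 2 by DESeq2 and 7 at an unadjusted p under 0.05. Of 50 regulators of mRNA decay and RNA binding the stress granule protein G3bp1 fell (-0.18, adjusted p = 0.0447, lost in all 6 fits), with an adjusted p of 0.69 under the length offset. Of 54 lysosomal genes Psap, the precursor of the saposins (0.18, SE 0.04, adjusted p = 0.0394), and the cathepsin Ctsh (0.28, SE 0.05, adjusted p = 0.0229) rose, a share of 3.7% beside 2.68% of all genes. The call of Psap was lost in all 6 fits without 1 library, and that of Ctsh in 4 of them and under the length offset (adjusted p = 0.0644). Of 43 Rab GTPases Rab4a, a regulator of endosome recycling that shares its strand with Gm20388 (0.91, SE 0.17, adjusted p = 0.0197), and Rab20 (0.39, SE 0.09, adjusted p = 0.0477) rose, the latter lost in 5 of the 6 fits. The share called was 4.65%. Of 31 G-protein regulators and purinergic receptors Gpr132, a proton- and lipid-sensing receptor, rose (0.33, adjusted p = 0.0427, and difference from M0 0.57, SE 0.10, adjusted p = 0.0128), and its M2 call was lost in all 6 fits. The single calls were 2.33% of the proteasome list, 2.0% of the mRNA decay list and 3.23% of this list, beside 2.68% of all genes. Among 20 cytokines, 27 AP-1 and early growth response genes and 17 fusion and osteoclast-type genes, 0 were called by edgeR or limma, 2, 2 and 1 by DESeq2, and 6, 4 and 3 at an unadjusted p under 0.05.

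**Figure D4:**
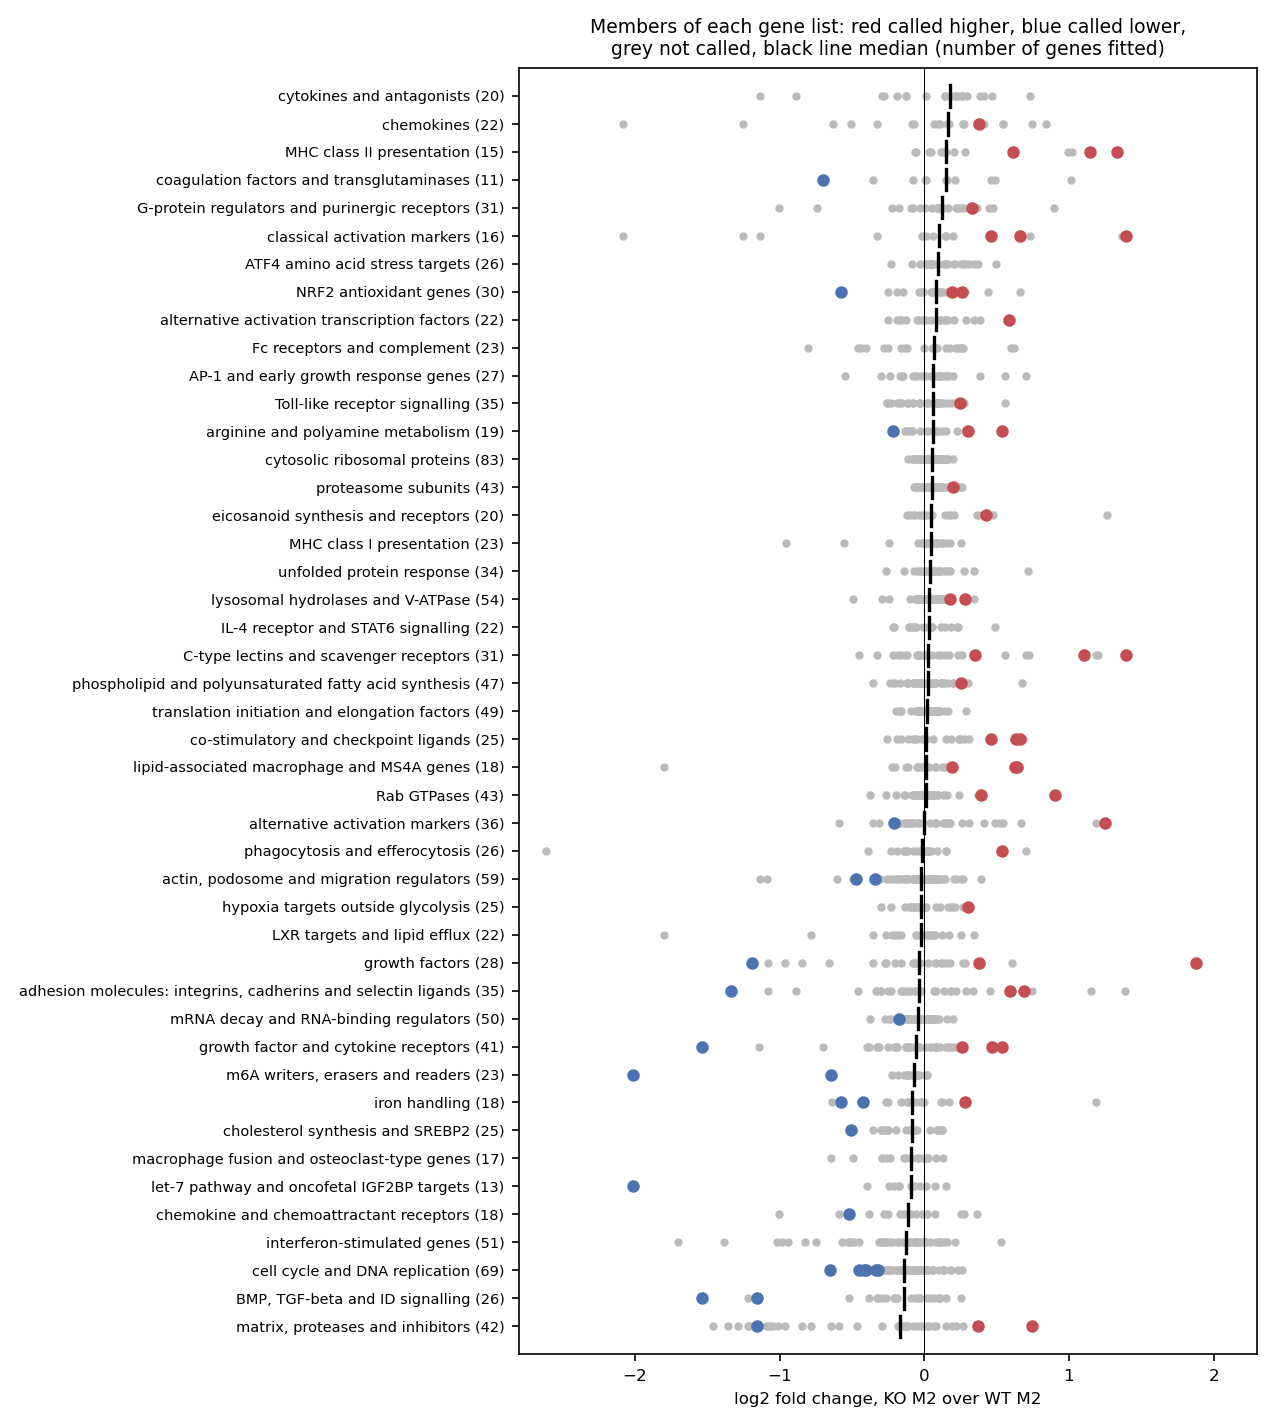
Log2 fold change of KO M2 against WT M2 (x axis) for the fitted members of 45 gene lists (rows), with called genes coloured by direction, other genes in grey and the median of each list marked. The cell cycle and DNA replication list holds 6 genes called lower and 0 called higher.

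The largest changes included genes outside these lists. Ide, the insulin-degrading enzyme (chromosome 19, 37268743 to 37337852, minus strand), had 185, 192 and 176 CPM in WT M2 and 80.7, 91.5 and 90.3 CPM in KO M2 (log2 fold change -1.07, SE 0.08, edgeR adjusted p = 2.28e-05), with -0.93 in M0, and was called under every alternative and without each library. Btaf1, a regulator of the TATA-binding protein that lies 0.343 Mb from Ide and was named after its values were seen, had 162, 153 and 141 CPM against 73.6, 105 and 98.8 CPM (-0.71, SE 0.13, adjusted p = 0.0179). Wdfy1, an endosomal adaptor, had 21, 18.5 and 19.1 CPM against 44.3, 45.2 and 69 CPM (1.44, SE 0.18, adjusted p = 0.00381), with 1.36 in M0. The genotypes did not overlap in any of these genes. Slfn9, a schlafen family member, had 50.0, 60.6 and 51.5 CPM against 31.1, 30.5 and 32.1 CPM (-0.79, SE 0.14, adjusted p = 0.0165) and 0.21 in M0 (difference -1.0, SE 0.19, adjusted p = 0.016). Rnf150, a RING finger protein, had -0.76 in M2 and 0.29 in M0 (difference -1.05, SE 0.20, adjusted p = 0.016). Further decreases were -1.06, SE 0.15, adjusted p = 0.00595 for Prl2c2, a placental prolactin relative with near-identical copies, and -0.83, SE 0.19, adjusted p = 0.04 for Asap2, a regulator of ARF GTPases. In the list of replication-dependent histones, whose copies share reads, 4 of the 8 fitted genes lay above 0 and 4 below. The 1 called gene was Hist1h2ao (1.16, SE 0.23, edgeR adjusted p = 0.0274), whose call was lost in 5 of the 6 fits without 1 library. The most abundant member, Hist1h2ap, had -0.76 (adjusted p = 0.292).

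Among genes of unclear function, Gm20716, which spans Adnp and Dpm1 on its strand, had -1.52, SE 0.26, adjusted p = 0.0157, and Gm10076 had -1.04, SE 0.14, adjusted p = 0.00595. G530011O06Rik, which Mid1 overlaps on the other strand, had 0.318, 7.27 and 5.98 CPM in WT M2 and 45.4, 55.6 and 43.8 CPM in KO M2 (log2 fold change 3.45, SE 0.56, edgeR adjusted p = 0.0125). This was the largest of the 15 named increases. The remaining increases were 0.78 for the homeobox gene Msx3, 0.68 for Gm11518, 0.66 for Gm20425, which spans Srprb and Trf on its strand, and 0.64 for the gene ENSMUSG00000067833.2.

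Genes near the altered loci were also counted. Within 20 Mb of Igf2bp2, 6 of 251 other genes were called (2.39%), and within 20 Mb of Lyz2, 2 of 134 (1.49%), Kitl and Timeless, beside 2.68% over all genes. Near Igf2bp2 these included Cd86, Tfrc, Mcm4, Emp2 (-0.34, adjusted p = 0.0195) and Fbxo45 (-0.30, adjusted p = 0.0156).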

How the data were processed

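For each library the authors deposited a table of 38887 genes with expected counts (estimated reads per gene, in which reads that match several genes are divided), TPM (length-scaled transcript abundance) and gene lengths. Reads were checked with FastQC 0.11.2, aligned to GRCm38 and quantified with Grape-nf, and whether counting used the strand is not given in the sources used here. The authors' comparisons with DESeq2 1.40.2 were not used here. Groups came from the sample titles.

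Expected counts were rounded, filtered by filterByExpr and fitted in R 4.3.3 with edgeR 4.0.16 (TMM, 1 coefficient for each of the 4 groups, quasi-likelihood F test, biological coefficient of variation 8.08%), and p was adjusted by Benjamini-Hochberg over 12846 genes. Alternatives were DESeq2 1.42.0, RLE factors, 2 other filters, limma 3.58.1 on log2(TPM + 1) and log2(TPM + 0.1), the 6 IL-4 libraries alone, protein-coding genes, thinning, a replicate block and leaving out each library. The length and GC offsets (loess span 0.5) and the fit without WT M0 replicate 3 were added after seeing the data.

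Deviations of M0 and M2 libraries with the same genotype and number correlated (r = 0.103 to 0.364), so the mouse pairs the treatments. Those of WT and KO did not (-0.037 to 0.0076). In simulated counts for KO M2 against WT M2, 81% of 200 genes changed by a log2 of 1 were recovered among 12720 genes. P-values of the main fit rest on the spread between the 3 libraries within each group, pooled over the 4 groups. The M0 and M2 libraries of a mouse were treated there as independent. The falls with IL-4 within a genotype were not fitted with the mouse as a block.

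Members and lists were chosen with earlier results of these data known. Named genes are Igf2bp2, Igf2bp3 and Lyz2, the 15 largest increases and decreases with a mean of at least 5 CPM, the called members of each list up to 4, the most abundant member of each list, and the called genes near Igf2bp2 and Lyz2 up to 6 each. Other genes were named after their values were seen, and some that the rule names are not reported here. Positions are from GENCODE M21 and promoters from RefSeq (GRCm38.p6).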

Additional observations from a re-analysis of the deposited data

Results flagged for a closer look

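For 16 named genes the KO against WT difference changed with IL-4, by the interaction test across 12846 genes (416 called, 3.24%). Values are the M2 minus M0 difference of log2 fold changes with the edgeR adjusted p. Genes relatively higher in KO under IL-4 were Cd276 (1.05, 0.0233), Cd40 (0.89, 0.00405), Pdgfa (0.82, 0.00755), Tnip1 (0.79, 0.00114), Kitl (0.63, 0.0297), Gpr132 (0.57, 0.0128), Nfkb1 (0.42, 0.0279) and Srm (0.41, 0.0147). Kitl was higher in KO at both treatments, and the other 7 had a negative value in M0 and a positive one in M2. Of these, Nfkb1 was not called in M2 (0.09, adjusted p = 0.459). Genes relatively lower in KO under IL-4 were Ung (-1.16, 0.0118), Rnf150 (-1.05, 0.016), Slfn9 (-1.0, 0.016), Timeless (-0.94, 0.00185), Cdc6 (-0.78, 0.00874), Thbd (-0.71, 0.0334), Stard4 (-0.68, 0.012) and Mcm4 (-0.46, 0.0447). All 8 had a positive value in M0 and a negative one in M2. In M0, Ung, Timeless and Cdc6 were called. The M0 value was not called for Rnf150, Slfn9, Stard4, Thbd (0.01, adjusted p = 0.964) and Mcm4 (0.06, adjusted p = 0.698), so a reversal of sign is not shown for them. Without WT M0 replicate 3 the difference of Thbd was no longer called (-0.66, adjusted p = 0.0557).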

How the results depend on the processing

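Of the 80 named genes called in M2, 8 (Lyz2, Igf2bp3, Kitl, Gdf3, Ide, Wdfy1, Prl2c2 and Gm10076) were called under every alternative and without each library, 49 lost the call in at least 4 of the 6 fits without 1 library (17 in all 6), 12 with the length offset and 18 with the length and GC offset, and 0 reversed. Against 344 genes called between KO M2 and WT M2, DESeq2 called 717 (340 shared), the length offset 517 (283 shared, 273 higher and 244 lower), limma 70 with a pseudocount of 1 and 57 with 0.1, and the 6 IL-4 libraries alone 165. The replicate block by library number, which does not pair the genotypes, gave 30. Counts stayed within 1.5 times of 344 with the other filters, RLE factors, thinning, protein-coding genes and the length and GC offset (400, of which 241 shared). Leaving out 1 library gave 25 to 298. Against 416 genes whose difference changed with IL-4, DESeq2 called 825, limma 113 with either pseudocount, and the replicate block by mouse 1002, which held all 416 and is the paired fit. Leaving out 1 M2 library gave 193 to 428, and leaving out WT M0 replicate 3 gave 415. Of 57 gene lists 36 held at least 1 called gene, against 16 and 14 with limma (pseudocounts 1 and 0.1), 13 with the replicate block by library number and 7 to 36 without 1 library. The causes of these changes were not tested. Small differences rest on 3 mice per genotype, KO M2 libraries were deeper than WT M2 libraries, and low genes such as Rnase2a and Cd276 had few counts.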

Other observations

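Some genes outside every list kept their call in all 6 fits without 1 library, and they were chosen after their values were seen. Nnt, the mitochondrial transhydrogenase that makes NADPH, had 26.2, 26.8 and 27.8 CPM in WT M2 and 36.6, 35.3 and 34.9 CPM in KO M2 (log2 fold change 0.40, SE 0.05, edgeR adjusted p = 0.00357), with 0.44 in M0 (adjusted p = 0.000402). Baiap2, an actin regulator at the membrane, had 198, 179 and 198 CPM against 242, 275 and 273 CPM (0.46, SE 0.06, adjusted p = 0.00382), with 0.50 in M0. Rbm45, an RNA-binding protein, had 30.5, 33.1 and 33.8 CPM against 24.2, 21.5 and 24.1 CPM (-0.48, SE 0.06, adjusted p = 0.00312), with -0.54 in M0. Nes, the intermediate filament protein nestin, had 274, 313 and 272 CPM against 192, 199 and 177 CPM (-0.59, SE 0.07, adjusted p = 0.00154), with -0.78 in M0.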
